A study of Mus musculus with 4 samples.

Results

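T cell receptor gene segments are the V, D, J and C pieces from which each T cell assembles its receptor chains, and 258 of the 49671 gene rows in the deposited tables hold one. They were chosen by name, as every row whose symbol starts with Tra, Trb, Trg or Trd followed by v, d, j or c. The pattern matched 259 rows, and Tradd, a death domain adaptor gene and no receptor segment, was left out. The alpha locus on chromosome 14 gave 189 rows (128 Trav, 60 Traj and Trac). The delta locus, which lies inside it, gave 11 rows (6 Trdv, 2 Trdd, 2 Trdj and Trdc). The beta locus on chromosome 6 gave 53 rows (35 Trbv, 2 Trbd, 14 Trbj and 2 Trbc). The gamma locus on chromosome 13 gave 5 rows (Trgv2 and 4 Trgj), since most gamma genes carry older Tcrg symbols in these files.

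In a developing T cell the recombinase made of the RAG proteins joins a V segment to a J segment, with a D segment between them in the beta and delta chains, and splicing then joins the assembled exon to a constant gene. The alpha and beta chains form the receptor of most splenic T cells, and the gamma and delta chains that of a minority. Unrearranged J segments are also read by transcripts that start upstream of or within the J clusters.

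The RNA came from CD3+ T cells of the spleens of 4 female F1 mice, in 4 libraries that the labels call biological replicates of 1 group. The mothers were C57BL/6 mice heterozygous for an Xist deletion and the fathers Mus musculus castaneus, so every autosomal gene had a Castaneus (paternal) and a C57BL/6 (maternal) allele, and strain and parent of origin cannot be told apart. The cells were enriched on columns and then cultured for 48 hours with IMD-0354, which inhibits the kinase IKKβ, at 2.5 µM, on anti-CD3 bound to the plate (1 µg/ml) and with anti-CD28 in solution (10 µg/ml). No cells without stimulation or without inhibitor were analysed here, so the comparisons are between alleles, loci and segments.

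Allelic reads numbered 33140517, 30539711, 34992012 and 33306767 in replicates 1 to 4, of which the receptor segments held 0.130% to 0.144%. Defining T cell genes (Cd3d, Cd3e, Cd3g, Cd247, Cd2, Cd5, Lck and Thy1) were all present, with a summed level of 316 ± 14.7 RPKM (SD, n = 4). Genes of other cells were also read. The 6 B cell markers summed to 33.1 to 46.2 RPKM, of which Ighm alone averaged 31.2. The 6 myeloid markers summed to 37.1 to 99.4 RPKM, led by Lyz2 at 41.3. The 5 NK markers summed to 3.91 to 5.16 RPKM, led by Eomes, which activated T cells also express, and Ncr1, Klrb1c, Klrk1 and Klra8 each averaged at most 0.345. The 7 gamma delta T cell markers, which include Trdc and 3 Tcrg constant genes, summed to 3.41 to 6.75 RPKM. The 3 erythroid markers summed to 1.01 to 6.12 RPKM. In bulk RNA, fewer cells of a type and less RNA per cell cannot be told apart.

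Most alpha and beta J segments carry a short motif common to J regions. A few J rows named in the results below, with and without the motif, are printed here. Sequences are those of the GENCODE M21 transcripts (build mm10, plus strand), 5′ to 3′, with the first match to TTNGGNNNNGGN in capitals. N stands for any base. Where the reading frame fits, the motif spells phenylalanine or leucine, then glycine, any residue and glycine.
Traj1: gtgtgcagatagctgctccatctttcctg
Traj21: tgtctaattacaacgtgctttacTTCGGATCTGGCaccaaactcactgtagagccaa
Traj22: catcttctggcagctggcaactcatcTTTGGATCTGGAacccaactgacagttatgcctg
Traj40: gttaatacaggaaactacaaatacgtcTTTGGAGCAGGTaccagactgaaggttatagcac
Traj33: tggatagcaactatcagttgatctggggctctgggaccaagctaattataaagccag
Traj3: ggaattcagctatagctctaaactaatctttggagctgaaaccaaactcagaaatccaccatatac
Trbj1-4: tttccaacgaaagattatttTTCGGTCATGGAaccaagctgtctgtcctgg
Trbj1-5: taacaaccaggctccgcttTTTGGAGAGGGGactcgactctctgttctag
Trbj2-7: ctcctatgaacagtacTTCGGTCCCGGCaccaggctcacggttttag

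The motif stood on the forward strand of 46 of 60 Traj rows (76.7%), 11 of 14 Trbj rows (78.6%), both Trdj rows and none of the 4 Trgj rows. It stood in 3 of 128 Trav rows (2.34%), 2 of 35 Trbv rows (5.71%) and none of the 6 Trdv rows. On the reverse strand it stood in no J row, in 2 Trav rows and in 4 Trbv rows. Traj1, Traj33 and Traj3 have no match in these letters. The 46 Traj rows with the motif had a median of 41.4 RPKM and the 14 without it a median of 32.4 RPKM. In the beta locus the order was the other way, with a median of 26.3 RPKM for the 11 Trbj rows with the motif and 70.4 RPKM for the 3 without it. In both classes the ranges overlapped. The 14 Traj rows without the motif include Traj61, Traj60 and Traj59, the rows farthest upstream, at 1.65, 0.666 and 0.902 RPKM. Place in the array was not taken into account, and a link of motif and level was not tested.

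The D segments of the beta locus are shown whole because they are among the shortest rows and were read nonetheless. They lie at chr6:41533201-41533212 (Trbd1) and chr6:41542163-41542176 (Trbd2), each just upstream of its own J cluster.
Trbd1: gggacagggggc
Trbd2: gggactgggggggc

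The 2 beta constant genes are close copies, and the stretch below, from position 383 to position 482 of each transcript, shows where they part. Capitals mark the 16 bases that differ within it. Over 521 coding bases, 23 differ and the copies are 95.6% identical. Only 1 difference lies before the printed stretch, at position 260.
Trbc1: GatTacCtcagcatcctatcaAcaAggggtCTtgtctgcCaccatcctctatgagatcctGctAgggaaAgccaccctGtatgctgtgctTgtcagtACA
Trbc2: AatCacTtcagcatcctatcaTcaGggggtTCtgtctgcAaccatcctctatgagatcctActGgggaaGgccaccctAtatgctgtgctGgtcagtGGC

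Of the 258 segments, 234 had RPKM above 0 (read density scaled to row length and library size, both alleles together), 157 averaged at least 1 RPKM, and 24 were at 0 in every replicate. The zeros were 18 V pseudogenes, all 4 Trgj and both Trdd. Among Trbv rows, all 22 annotated as genes were read, with a median of 5.04 RPKM. Of the 13 Trbv rows annotated as pseudogenes, 3 were read. Among Trav rows, all 108 genes were read, with a median of 1.05 RPKM, as were 12 of 20 pseudogenes, with a median of 0.0467 RPKM over the 20. Pseudogene J rows were not silent in this way. All 9 Traj pseudogenes were read, with a median of 17.9 RPKM, against 41.6 RPKM for the 51 Traj genes. Traj1, a pseudogene, had the highest mean RPKM of any J row, over only 29 bases. It held 217 to 301 allelic reads a library, against 460 to 578 for Traj21.

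Constant genes, which every finished chain shares, were read at similar levels in the 4 libraries. Trac (chr14:54220521-54224206), the alpha constant gene, had 151, 164, 166 and 175 RPKM in replicates 1 to 4, a mean of 164 ± 9.66 (SD, n = 4). Trbc1 (chr6:41538218-41539881) had 119, 146, 134 and 147 RPKM. Trbc2 (chr6:41546730-41548352), its downstream copy, had 157, 161, 161 and 193 RPKM, and was above Trbc1 in each library. The means were 137 ± 13.3 RPKM for Trbc1 and 168 ± 16.5 RPKM for Trbc2. Because most of their coding sequence is shared, how reads were split between the copies rests on the authors' counting, not given in the sources used here.

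Delta and gamma constant genes were read far less. Trdc (chr14:54142851-54148868), the delta constant gene, had 0.552, 1.72, 1.34 and 0.970 RPKM, a mean of 1.15 ± 0.502. Trdv5, an inverted delta V segment, overlaps its 3′ end on the other strand and averaged 0.661 RPKM, and since it is not stated whether counting used strand, reads of this pair may be mixed. Of the 11 delta rows, 9 overlap another annotated gene on the other strand, so delta values are uncertain in the same way. The 9 Tcrg rows together had 2.47 ± 1.38 RPKM. Trgv2, the single gamma V row under the chosen symbols, had 0.0712, 0.384, 0.585 and 0.177 RPKM.

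Summed over their many rows, the short J classes had the highest values per length, although the highest single rows were Trbc2, Trac and Trbc1. The Traj rows together had 2355, 2951, 2458 and 2701 RPKM in replicates 1 to 4, against 151, 149, 163 and 177 RPKM for Trav rows. Trbj rows had 627, 628, 565 and 649 RPKM, against 106, 122, 135 and 159 RPKM for Trbv rows. Both J classes were above their V class in every library. Row length differed as well: the median transcript was 61 bases for Traj and 49 for Trbj, against 358 for Trav, 366 for Trbv and 935 for Trac. In allelic reads, which are not divided by length, Trac held 50341, Traj 43528 and Trav 15778, and the 2 Trbc genes held 40144, Trbv 16401 and Trbj 11146. A read touching a row much shorter than itself is divided by that row's few bases, so the J sums are no measure of how many transcripts carried a J segment.

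**Figure D1:**
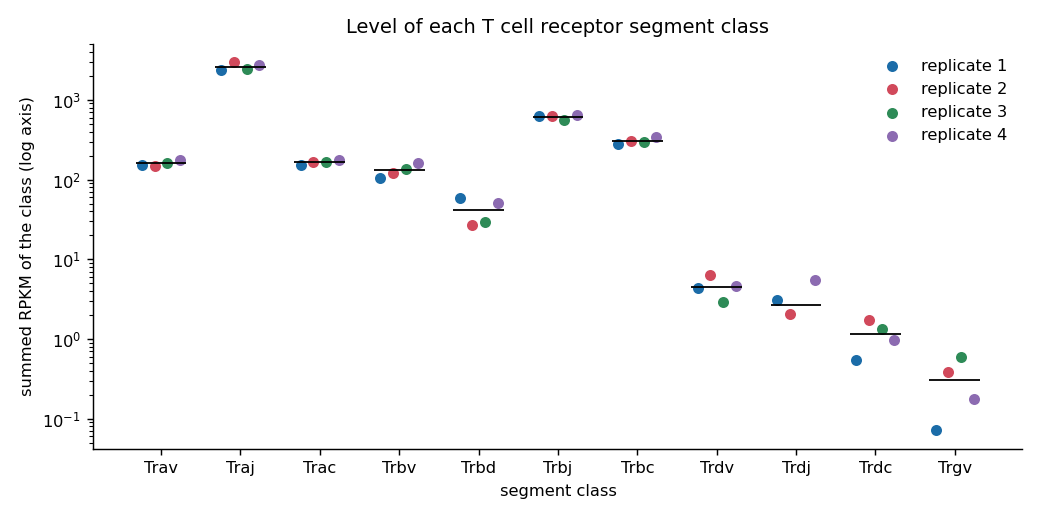
Summed RPKM of each segment class in each library, on a log axis. Points are replicates 1 to 4 and the line is their mean. Traj lies highest with a mean of 2616, and Trgv lowest with 0.304. Classes at 0 in every library (Trdd and Trgj) and the value of 0 for Trdj in replicate 3 are not drawn.

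Trbd1, a D segment of 12 bases, had 48.8, 27.1, 29.2 and 42.6 RPKM. Trbd2, with 14 bases, had 9.99, 0, 0 and 7.58 RPKM. Trbd1 was thus above Trbd2 in each library, and replicates 1 and 4 were the higher libraries for both. Trbd1 rested on 30 to 60 allelic reads a library and Trbd2 on at most 16. Trdj1 and Trdj2, the delta J rows, averaged 1.29 and 1.38 RPKM and held 26 and 20 allelic reads in all.

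Levels of the alpha J rows climbed along the array toward the constant gene. The 20 rows farthest upstream, Traj61 to Traj42, summed to 234, 328, 285 and 301 RPKM in replicates 1 to 4. The middle 20, Traj41 to Traj22, summed to 960, 1238, 973 and 1105 RPKM, and the last 20, Traj21 to Traj1, to 1161, 1385, 1200 and 1295 RPKM. In each library the order of the 3 stretches was the same. Across the 60 rows, Spearman's rho of RPKM with place in the array was 0.746, 0.687, 0.747 and 0.710 in the 4 libraries, given as a description, since neighbouring rows share transcripts and each library its depth. The division into stretches was made after the values had been seen.

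The 5 highest alpha J rows were Traj1, Traj21, Traj22, Traj14 and Traj30. Traj1 (chr14:54218814-54218842), annotated as a pseudogene of 29 bases next to Trac, had 86.2, 126, 108 and 124 RPKM. Traj21 (chr14:54198790-54198846) had 109, 116, 95.02 and 98.8 RPKM. Traj22 (chr14:54197248-54197307) had 96.5, 118, 92.2 and 87.6 RPKM, and these 3 ranges overlapped. Traj14, a pseudogene, averaged 92.8 ± 30.5 RPKM and Traj30 89.6 ± 20.7 RPKM. At the far end Traj61 averaged 1.65 and Traj60 0.666 RPKM. The ranking of Traj rows agreed closely among libraries, with Spearman's rho of 0.872 to 0.939 over the 6 pairs.

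**Figure D2:**
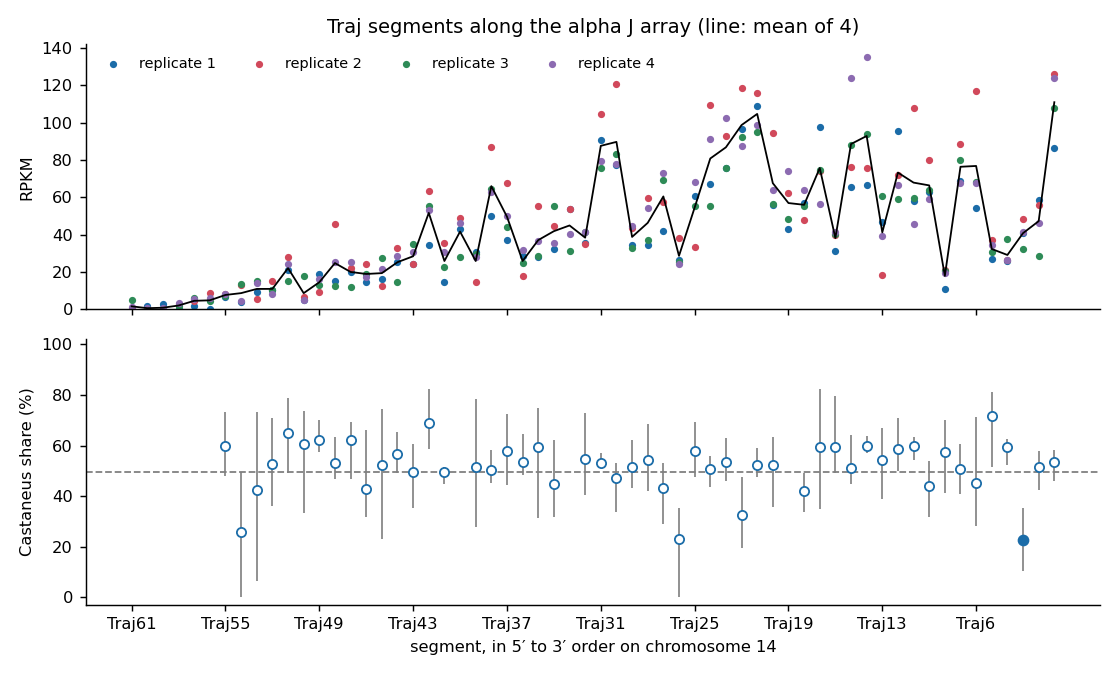
Traj rows in 5′ to 3′ order on chromosome 14. The upper panel gives RPKM in each library (points) and the mean (line). The lower panel gives the mean Castaneus share of the tested rows, with lines from the lowest to the highest replicate, filled where the allele test passed, and the dashed line at the autosomal share of 49.6%. Levels are low at Traj61 and highest at Traj1, while shares stay around the dashed line except for a few rows such as Traj3.

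Alpha J and V rows used by 2 semi-invariant receptors were looked up by their known role, outside the naming rule. Invariant NKT cells use Trav11 (or its copy Trav11d) with Traj18. Trav11 averaged 0.189 and Trav11d 0.115 RPKM, each at 0 in at least 1 library, and Traj18 averaged 56.0 ± 6.56 RPKM. Mucosal-associated invariant T cells use Trav1 with Traj33. Trav1 averaged 2.37 ± 0.340 RPKM and Traj33 44.9 ± 11.0 RPKM. Traj18 and Traj33 both had values within the range of the other J rows of their stretches.

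Beta J rows showed an order too. The first cluster (Trbj1-1 to Trbj1-7) summed to 413, 474, 376 and 384 RPKM and the second (Trbj2-1 to Trbj2-7) to 214, 154, 189 and 265 RPKM. The first was higher in every library. Trbj1-5 (chr6:41535084-41535133) had 87.8, 114, 84.3 and 97.4 RPKM. Trbj1-4 (chr6:41534811-41534861) had 113, 93.9, 72.6 and 93.6 RPKM, and Trbj2-7 (chr6:41543810-41543856) had 73.7, 75.8, 59.2 and 103 RPKM. Trbj1-6 averaged 73.5 ± 23.9 RPKM. These 4 rows, the highest of the class, overlapped in their ranges, while Trbj1-1 averaged 0.870 RPKM. The constant gene downstream of the second cluster, Trbc2, was the higher of the constant pair, so the clusters and their constant genes ranked in opposite order.

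Among beta V segments, which contact the antigen, Trbv13-2 (chr6:41121396-41121832) was the highest, with 11.7, 19.6, 15.6 and 18.1 RPKM. Trbv20 (chr6:41188273-41188977) had 12.9, 9.76, 16.5 and 15.97 RPKM. Trbv2 (chr6:41047340-41047995) had 8.82, 11.5, 11.8 and 13.5 RPKM. The ranges overlapped, but Trbv13-2 was above Trbv2 in each of the 4 libraries, while Trbv20 was above Trbv13-2 in 2 of them. Trbv13-3, 90.6% identical to Trbv13-2, averaged 11.2 ± 1.25 RPKM, Trbv19 8.50 ± 1.87 and Trbv31, the inverted V segment downstream of Trbc2, 8.46 ± 2.25. Spearman's rho between libraries was 0.909 to 0.954 over the 25 Trbv rows that were read.

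Alpha V segments were many and each low. The highest, Trav14-2 (chr14:53640701-53641225), had 4.29, 6.64, 6.50 and 6.55 RPKM. Trav7d-4 (chr14:52769753-52770392) had 5.80, 5.72, 5.32 and 5.28 RPKM, Trav14-3 averaged 5.35 ± 1.05, Trav5-1 4.92 ± 1.88, Trav4-4-dv10 4.87 ± 1.08 and Trav3-1 4.32 ± 2.59. The ranges of these 6 rows overlapped. Spearman's rho between libraries was 0.637 to 0.886 over the 120 Trav rows that were read, a wider range than for the Trbv rows.

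Many alpha V segments cannot be read apart by allele. The mouse locus holds a duplicated V stretch whose copies carry d and n in their names, and 67 of 128 Trav rows had another Trav row at least 98% identical, 42 of them identical. No Traj or Trbv row had one. Of 47 segments above 0 RPKM without any allelic read, 46 were Trav, 38 of them d or n copies and 33 with an identical copy. In 4 pairs of identical copies, such as Trav6d-6 and Trav6-6, both rows had the same RPKM in every library. Traj40, at 41.6 ± 9.22 RPKM with 3 allelic reads, and Traj33, with 32, were also almost blind to allele. Trav values by allele therefore describe the 74 rows that had allelic reads, and the copies may have exchanged reads.

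The Castaneus share of allelic reads, summed over a locus, lay near the autosomal 49.6% ± 0.0870 (SD, n = 4). The alpha locus had 46.7%, 47.8%, 48.6% and 44.8% in replicates 1 to 4, a mean of 47.0% ± 1.64 of 109647 reads. The beta locus had 51.8%, 50.1%, 55.0% and 54.1%, a mean of 52.7% ± 2.21 of 67899 reads. All 4 alpha values were below, and all 4 beta values above, the autosomal share of their library. The delta locus had 41.8%, 38.3%, 55.4% and 43.3%, a mean of 44.7% ± 7.45 of 1819 reads, with replicate 3 apart from the others.

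The gamma locus held 47 allelic reads, all from Trgv2. Its Castaneus share was 0% of 4 reads, 100% of 18, 100% of 16 and 88.9% of 9. The exact (Clopper-Pearson) 95% interval in replicate 1 ran up to 60.2%. In replicate 4 the interval ran from 51.8% to 99.7%. Such intervals cover counting error only, and reads were clumped by allele, as given below. With the 9 Tcrg rows added, chosen after the files had been seen, the gamma share was 46.7% ± 8.48 (n = 4).

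Within the loci, classes went different ways. Castaneus shares were 56.8% ± 4.08 for Trav, 51.8% ± 0.805 for Traj and 39.7% ± 2.42 for Trac. In each library Traj lay above Trac, by 11.8, 8.90, 12.3 and 15.4 percentage points. Shares were 58.9% ± 1.77 for Trbv, 50.7% ± 5.18 for Trbj and 51.2% ± 3.13 for Trbc. Without Trac the alpha share was 53.1%, on the other side of the autosomal value, so the low alpha share rested on the constant gene. Without Trbc1 the beta share was 48.9%, and without both Trbc genes it was 55.1%.

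**Figure D3:**
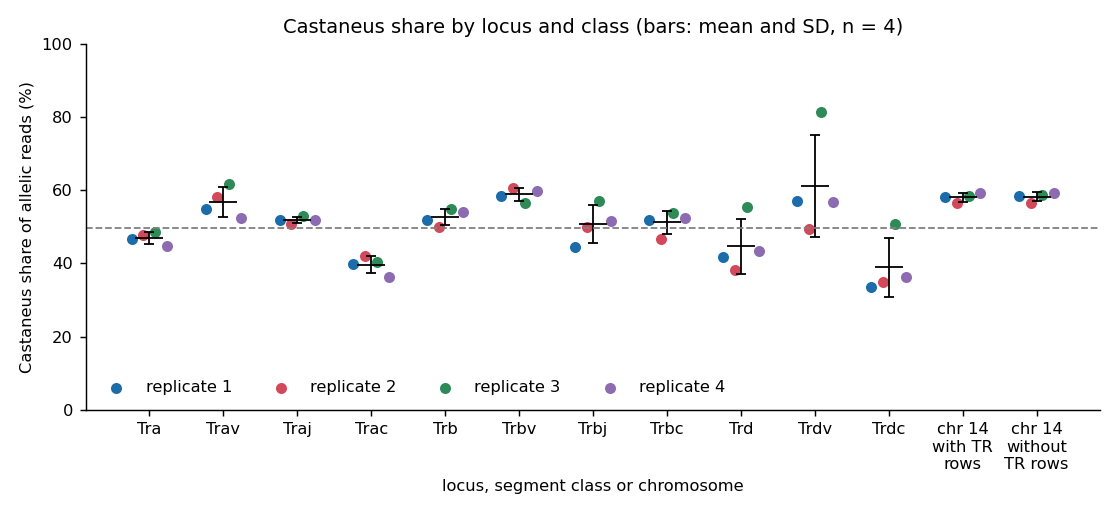
Castaneus share of allelic reads for each locus, its larger classes, and chromosome 14 with and without the receptor rows. Points are replicates 1 to 4, bars the mean and SD, and the dashed line the autosomal share of 49.6%. Trac lies below the line and Trav and Trbv above it in all 4 libraries.

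On chromosome 14 the receptor rows weighed little. With them the Castaneus share was 58.3%, 56.4%, 58.5% and 59.1% in replicates 1 to 4, a mean of 58.1% ± 1.17. Without them it was 58.5%, 56.6%, 58.7% and 59.4%, a mean of 58.3% ± 1.19. The rows thus lowered the share in 4 of 4 libraries, by a difference of -0.184, -0.167, -0.150 and -0.235 percentage points. They held 1.63% ± 0.152 of the chromosome's allelic reads, with a share of 46.9% ± 1.65. The other autosomes averaged 46.9% (chromosome 17) to 50.5% (chromosome 2). Rpph1, the RNA of ribonuclease P, held 37.7% ± 5.40 of the chromosome's allelic reads with a Castaneus share of 72.9% ± 1.25. Without Rpph1 the chromosome stood at 49.1% ± 0.301 with the receptor rows and at 49.2% ± 0.293 without them.

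For single segments the allele ratio was tested with edgeR's quasi-likelihood test against a ratio of 1, two-sided, with the replicate as a block. A gene needed on average 20 allelic reads a library and 1 RPKM, which 129 segments and 10268 autosomal genes in all had. At an adjusted p under 0.05 over all 10268 genes, 14 segments were called above (more Castaneus reads) and 9 below. These are 10.9% and 6.98% of the tested segments, against 12.4% called above and 15.6% called below among all genes tested. The share of called segments was thus no larger than the background. At an unadjusted edgeR p under 0.05 there were 38 of 129 segments, against 3902 of all 10268 genes tested. With DESeq2's Wald test the calls were 26 above and 14 below, among them all 23 of edgeR's. Without replicate 2 edgeR called 19 above and 14 below, again with all 23 among them. Without replicates 1, 3 and 4 it called 7, 9 and 7 above and 8, 8 and 5 below. The 12.4% and 15.6% belong to the main fit. Shares over all genes are not given for the other fits, so their counts stand without a background.

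The segments stood off balance by more and with more scatter than other genes. Their median absolute log2 ratio of Castaneus to C57BL/6 was 0.62, against 0.26 over all genes tested, and the median log2 ratio was 0.22, against -0.04. The SD of a segment's share over the 4 libraries had a median of 10.5 points, against 4.43. Depth moved with this: the median was 130 allelic reads a library for segments, against 1281 for all genes tested. Its part in the difference was not tested. Reads also came in clumps of 1 allele. Among segments with 20 to 39 allelic reads in a library, 28.6%, 72.2%, 35.7% and 5% were seen from 1 allele only in replicates 1 to 4, against 36.6%, 84.3%, 45.3% and 13.7% of other autosomal genes.

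The alpha constant gene was called below. Trac had 4986, 4741, 5435 and 4787 Castaneus reads, against 7489, 6541, 7973 and 8389 C57BL/6 reads, in replicates 1 to 4. The C57BL/6 allele led in every library. Its log2 ratio was -0.58 ± 0.06 (SE), with an adjusted p of 3.58e-05 by edgeR. It stayed called below in all 13 alternative fits, with adjusted p of 2.86e-21 to 0.00165.

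The beta constant genes were called in opposite directions. Trbc1 had a Castaneus share of 62.2%, 51.9%, 61.6% and 60.5%, with replicate 2 lowest. Trbc2 had 35.01%, 36.96%, 39.5% and 36.5%, and the groups of values did not overlap. The log2 ratio was 0.56 ± 0.09 for Trbc1 (edgeR adjusted p = 0.0012) and -0.74 ± 0.08 for Trbc2 (edgeR adjusted p = 5.06e-05). In each library Trbc1 exceeded Trbc2, by 27.1, 14.98, 22.1 and 24.01 points. That difference was not itself tested. Both calls held in all 13 alternatives. Trbc1 had 25916 allelic reads and Trbc2 14228, although Trbc2 had the higher RPKM of both alleles together. Which of the bases printed above also differ between the strains was not analysed here, so a read of one copy assigned to an allele of the other cannot be told apart from a difference between alleles.

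The J clusters upstream of them ranked in the same order as their constant genes. The first cluster had 46.7%, 53.1%, 62.1% and 54.5% Castaneus and the second 39.96%, 39.7%, 47.2% and 47.4%. In each library the first was higher, by 6.76, 13.3, 14.9 and 7.18 points, which was not tested. No single Trbj row was called among 13 tested, against 12.4% called above and 15.6% below over all genes tested. An unadjusted edgeR p under 0.05 was found for 2 of the 13, against 3902 of all 10268 genes tested. Trbj2-7, with 34.6%, 33.3%, 34.9% and 46.6%, had a log2 ratio of -0.73 ± 0.27 and an adjusted p of 0.0675 by edgeR. Trbj1-4, Trbj1-5 and Trbj1-6 had log2 ratios of 0.20 ± 0.26, 0.17 ± 0.24 and 0.06 ± 0.26. Trbd1 had 37 Castaneus and 144 C57BL/6 reads and a log2 ratio of -2.23 ± 1.06 that was not called (edgeR adjusted p = 0.151). Trbd2 had 0 Castaneus and 27 C57BL/6 reads, in replicates 1 and 4.

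**Figure D4:**
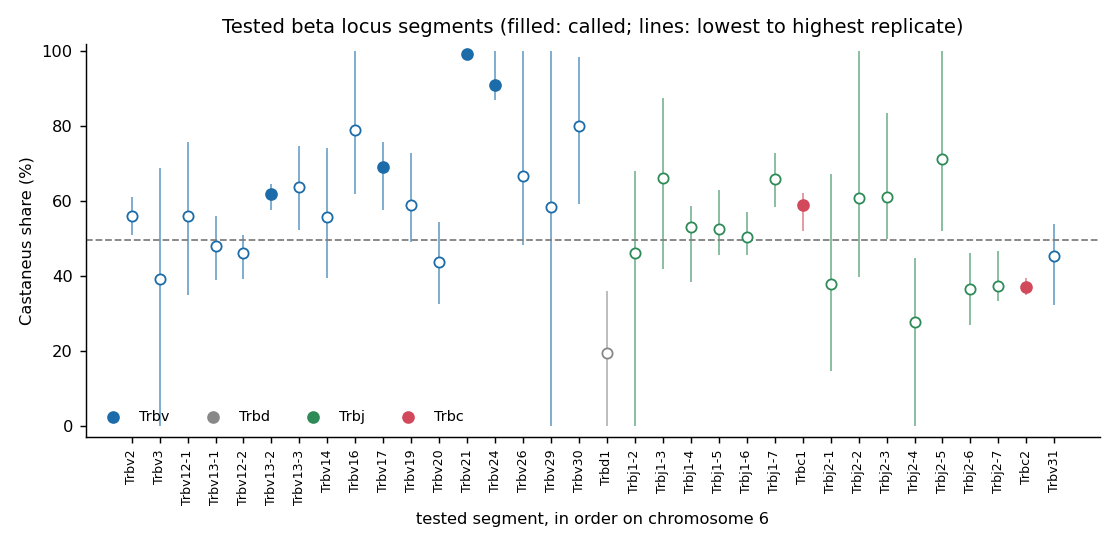
Mean Castaneus share of each tested beta locus segment, in order on chromosome 6, with lines from the lowest to the highest replicate. Filled points passed the allele test. The dashed line is the autosomal share of 49.6%. Trbc1 and Trbc2 lie on opposite sides of it, at 59.1% and 37.0%, and all 4 called Trbv rows lie above it.

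Of 18 tested beta V segments, 4 were called above (22.2%) and 0 below, against 12.4% and 15.6% over all genes tested. Trbv21 (chr6:41202550-41203044) had 86, 85, 124 and 169 Castaneus reads, against 0, 0, 0 and 4 C57BL/6 reads. It was read almost wholly from the Castaneus allele, with a log2 ratio of 7.09 ± 0.96 (edgeR adjusted p = 0.000243). Trbv24 (chr6:41218091-41218557), annotated as a pseudogene, had 153, 138, 236 and 179 Castaneus reads, against 18, 0, 34 and 27 C57BL/6 reads. Its log2 ratio was 3.51 ± 0.70 (edgeR adjusted p = 0.00341). Trbv13-2, the highest Trbv row, had Castaneus shares of 64.5%, 64.3%, 57.6% and 61.4%, and Trbv17 had 75.7%, 73.5%, 57.7% and 69.9%. Their log2 ratios were 0.73 ± 0.20 and 1.22 ± 0.38 with edgeR adjusted p of 0.0209 and 0.0341. These 2 calls ended without replicate 1 (0.0764 for Trbv13-2 and 0.155 for Trbv17) and without replicate 4 (0.0978 and 0.170).

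The other high Trbv rows were not called. Trbv2 had a log2 ratio of 0.38 ± 0.20, Trbv13-3 of 0.87 ± 0.36, Trbv19 of 0.57 ± 0.32, Trbv20 of -0.35 ± 0.26 and Trbv31 of -0.24 ± 0.32. Among the 18 tested Trbv rows, 13 had a mean Castaneus share above 50%, and the shares of the 18 ranged from 39.2% (Trbv3) to 99.4% (Trbv21). In Trbv29 the share was 100% of 4 reads, 0% of 42, 60.0% of 30 and 73.7% of 19, among the widest swings between libraries of any tested segment.

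Of 41 tested alpha V rows, 9 were called above (22.0%) and 6 below (14.6%), against 12.4% and 15.6% over all genes tested, so that the share below was near the background. Along the locus the called rows were not mixed. The rows upstream of the d copies (Trav1 to Trav6-2) had a summed Castaneus share of 85.6%, 89.0%, 88.5% and 77.9%. The 39 d copies had 71.9%, 79.5%, 82.7% and 77.6%, from the 18 of them with allelic reads. The 34 n copies had 38.7%, 54.2%, 32.9% and 28.8%, from only 767 reads in the 11 of them with any. In replicate 2, all Castaneus reads of the n copies came from Trav10n (58, against 0 C57BL/6 reads). The 47 rows downstream of the n copies (Trav7-2 to Trav23) had 43.1%, 44.8%, 50.7% and 41.2%, from the 38 with allelic reads. In every library both upstream blocks lay above both downstream blocks. Upstream, 8 of 13 tested rows were called above and none below, while downstream 1 of 28 was called above and 6 below. With uncalled rows included the split was less clean. A mean Castaneus share above 50% was found in 7 of 7 tested rows before the d copies and 5 of 6 d copies. It was also found in 10 of 25 tested rows after the n copies, and in 0 of 3 n copies. The blocks were drawn after the values had been seen, and their difference was not tested.

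**Figure D5:**
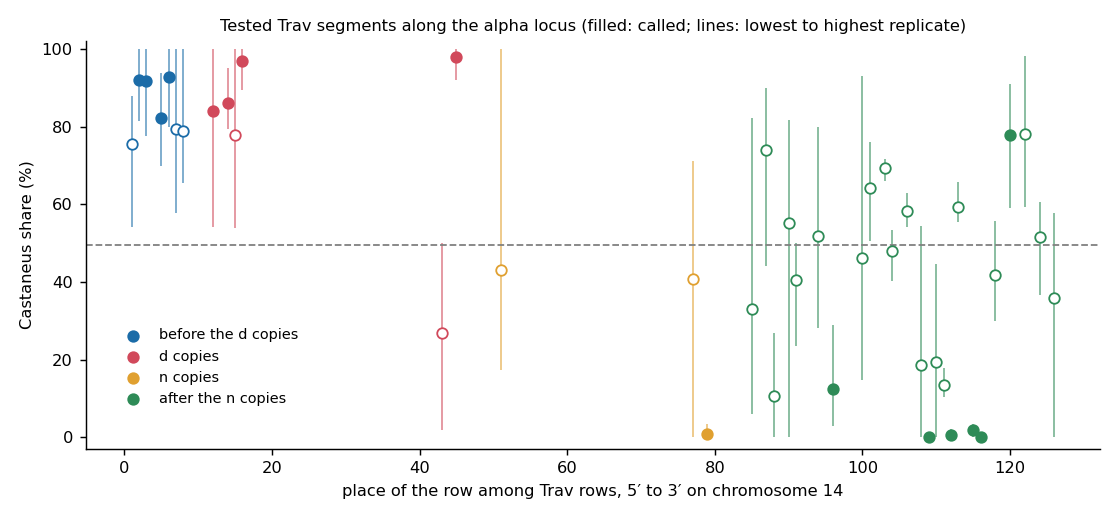
Mean Castaneus share of the 41 tested Trav rows by their place among the 128 rows along chromosome 14, coloured by block, with lines from the lowest to the highest replicate. Filled points passed the allele test and the dashed line is the autosomal share of 49.6%. Points of the blocks before and within the d copies lie above the line with 1 exception, and called rows after them lie below it except Trav3-4.

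Upstream of the d copies, the called rows were Trav2, Trav3-1, Trav5-1 and Trav6-1. Trav3-1 (chr14:52580665-52581213) had 176, 26, 247 and 145 Castaneus reads, against 10, 0, 12 and 42 C57BL/6 reads. Its log2 ratio was 3.70 ± 0.71 (edgeR adjusted p = 0.00251). Trav6-1 (chr14:52638515-52638962) had 64, 91, 131 and 95 Castaneus reads, against 16, 0, 4 and 6 C57BL/6 reads, and a log2 ratio of 4.25 ± 0.96 (edgeR adjusted p = 0.00665). Castaneus reads outnumbered C57BL/6 reads in every library for both. Trav5-1 had a log2 ratio of 2.53 ± 0.62 (edgeR adjusted p = 0.0103, and 0.0599 without replicate 3). Trav2 had a log2 ratio of 4.12 ± 1.11 (edgeR adjusted p = 0.0173), a call that ended without replicate 1, 3 or 4, with adjusted p of 0.0970, 0.0680 and 0.0508. None of these 4 rows had another row at 98% identity or more.

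Among the d copies, Trav7d-3, Trav7d-4, Trav9d-1 and Trav13d-4 were called above. Trav7d-4, 99.6% identical to Trav7-4, had 132, 154, 143 and 136 Castaneus reads, against 34, 8, 20 and 29 C57BL/6 reads. Castaneus led in all 4 libraries, with a log2 ratio of 2.77 ± 0.54 (edgeR adjusted p = 0.00276). Trav7d-3, 99.0% identical to Trav7-3, had a log2 ratio of 3.30 ± 0.99 (edgeR adjusted p = 0.0295). It lost its call without replicate 1, 3 or 4, with adjusted p of 0.0946, 0.149 and 0.111. Trav9d-1, 99.4% identical to Trav9-1, had 123 Castaneus and 7 C57BL/6 reads and a log2 ratio of 4.54 ± 1.26 (edgeR adjusted p = 0.0203). It lost its call without replicate 1, 3 or 4 as well, with adjusted p of 0.0510, 0.0520 and 0.112, and also with no RPKM minimum, with a minimum mean of 10 reads and with no minimum (0.0557 to 0.0650). A minimum mean of 100 reads left it untested.

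The Trav13-4 copies, grouped by their names, are an example of copies read from opposite alleles. Their sequences over 90 bases, starting at position 7 of Trav13d-4, 108 of Trav13n-4 and 61 of Trav13-4-dv7, are shown with capitals at the bases where the 3 copies are not all alike. They lie at chr14:53072763-53073274, chr14:53362267-53364106 and chr14:53757356-53757921 on the plus strand of mm10.
Trav13d-4: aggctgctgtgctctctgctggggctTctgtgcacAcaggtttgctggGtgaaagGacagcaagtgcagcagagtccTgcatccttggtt
Trav13n-4: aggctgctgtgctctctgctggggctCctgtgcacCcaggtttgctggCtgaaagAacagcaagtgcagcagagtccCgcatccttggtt
Trav13-4-dv7: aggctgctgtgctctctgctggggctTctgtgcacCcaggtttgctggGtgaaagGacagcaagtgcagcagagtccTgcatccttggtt

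Trav13d-4 had 52, 25, 18 and 46 Castaneus reads, against 0, 0, 0 and 4 C57BL/6 reads. Trav13n-4 had 0, 0, 0 and 2 Castaneus reads, against 21, 24, 38 and 59 C57BL/6 reads. Trav13-4-dv7, which had too few reads to be tested, had 1 Castaneus and 69 C57BL/6 reads in all. Over the whole transcript, Trav13d-4 is 97.9% identical to Trav13-4-dv7 and 92.1% identical to Trav13n-4, so the copies read from opposite alleles include the more similar pair. The row closest to Trav13n-4 was none of these but Trav13d-1, at 94.2% identity. The log2 ratios were 5.51 ± 1.34 for Trav13d-4 (edgeR adjusted p = 0.0101) and -6.10 ± 1.32 for Trav13n-4 (edgeR adjusted p = 0.00521). Trav13d-4 was not called without replicate 1 (0.0613) or replicate 4 (0.0547), and Trav13n-4 averaged under 1 RPKM without replicate 3 or replicate 4 and then had no test.

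Downstream of the n copies, called rows read almost wholly from the C57BL/6 allele included Trav8-2, Trav6-7-dv9, Trav16 and Trav9-4. Trav8-2 (chr14:53738375-53738838), annotated as a pseudogene, had 1, 1, 4 and 0 Castaneus reads, against 123, 33, 113 and 128 C57BL/6 reads. Its log2 ratio was -5.97 ± 0.93 (edgeR adjusted p = 0.000664). Trav6-7-dv9 had 1 Castaneus and 132 C57BL/6 reads (log2 ratio -6.53 ± 1.38, edgeR adjusted p = 0.00467). Trav16 had 0 Castaneus and 135 C57BL/6 reads and Trav9-4 had 0 and 127. Set against a floor of 3 reads over the group, the Castaneus allele was 45.0-fold lower in Trav16 and 42.3-fold lower in Trav9-4. These folds pool the libraries and treat reads as independent. Reads were clumped by allele, so the folds are no lower bounds. In single libraries the exact interval of the Castaneus share ran up to 20.6% for Trav16 (replicate 2, 16 reads). For Trav9-4 it ran up to 16.8% (replicate 1, 20 reads). Trav16 and Trav9-4 had edgeR adjusted p of 0.011 and 0.012. Without replicate 4 the calls of Trav6-7-dv9, Trav16 and Trav9-4 ended, with adjusted p of 0.0646, 0.0738 and 0.070. Trav16 and Trav6-7-dv9 have copies at least 98% identical elsewhere in the locus.

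Trav13-1 was also called below, with 47 Castaneus and 307 C57BL/6 reads and a log2 ratio of -3.14 ± 0.85 (edgeR adjusted p = 0.0178). That call ended without replicate 1 (0.101) and without replicate 3 (0.0767). Trav3-4 was the 1 downstream row called above, with 473 Castaneus and 113 C57BL/6 reads and a log2 ratio of 2.06 ± 0.62 (edgeR adjusted p = 0.0291). It is 96.6% identical to Trav3-1, called above upstream, and lost its call without replicate 1, 3 or 4, with adjusted p of 0.158, 0.147 and 0.0769. Among the highest Trav rows, Trav14-2 (0.51 ± 0.36), Trav14-3 (-0.47 ± 0.47) and Trav4-4-dv10 (-2.48 ± 0.88, edgeR adjusted p = 0.0595) were not called by log2 ratio.

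Some Trav rows changed sides between libraries. Trav10n had a Castaneus share of 32%, 100%, 23.2% and 17.3% over 25, 58, 56 and 81 reads. Trav6-5 had 70.0%, 0%, 81.8% and 69.2% over 60, 20, 55 and 39 reads. In both, replicate 2 stood against the other libraries. Among segments with 20 to 39 allelic reads, replicate 2 was also the library with the most read from 1 allele only (72.2%). The same held for other autosomal genes with 20 to 39 reads (84.3%). Trav10n, with 58 reads in replicate 2, lay outside that range, and the cause of the swings was not tested.

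Alpha J rows held a single call. Of 51 tested, 37 had a mean Castaneus share above 50% and 1 was called, with 4 at an unadjusted edgeR p under 0.05. Over all genes tested, 3902 of 10268 had such a p. Calls were thus 0% above and 1.96% below, against 12.4% and 15.6% over all genes tested. Log2 ratios above 0 were found in 38 of the 51 rows, against 4647 of all 10268 genes tested. Traj3 (chr14:54217292-54217357) had 32, 107, 58 and 58 Castaneus reads, against 277, 196, 180 and 227 C57BL/6 reads. Its share was 10.4% to 35.3%, its log2 ratio was -1.85 ± 0.40 (edgeR adjusted p = 0.0054), and the call held in all 13 alternatives. Of the highest Traj rows, Traj1, Traj21, Traj14 and Traj30 had log2 ratios of 0.22 ± 0.32, 0.16 ± 0.22, 0.61 ± 0.32 and -0.14 ± 0.26. Traj22 had -1.07 ± 0.81 and rested on 33 to 68 allelic reads a library, against 460 to 578 for Traj21, which had a similar RPKM.

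Delta segments gave few reads by allele. Trdc had 64, 166, 199 and 95 Castaneus reads, against 126, 310, 193 and 166 C57BL/6 reads, and was not called (log2 ratio -0.63 ± 0.30, edgeR adjusted p = 0.145). Its share in replicate 3, 50.8%, lay above the 33.7% to 36.4% of the others. Trdv1, the highest delta V row at 1.67 ± 1.24 RPKM, had 159 Castaneus and 62 C57BL/6 reads and was not called (log2 ratio 1.42 ± 0.85, edgeR adjusted p = 0.254). Trdv2-2 held 11 Castaneus and 6 C57BL/6 reads and Trdv5 18 of each, too few to test.

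Genes that work with the receptor were looked at from a list, beside a background of 12.4% called above and 15.6% below over all genes tested. Of the 8 partner genes, 7 were tested. Cd3d, a chain of the CD3 signalling complex, was called below with a log2 ratio of -0.44 (edgeR adjusted p = 0.000258), and none was called above. Cd3e, Cd3g, Cd247, Cd4, Cd8a and Cd8b1 were not called, and Ptcra, the surrogate alpha chain of thymocytes, was at 0 RPKM. Of the 10 recombination genes, 7 were tested. Prkdc, the DNA-dependent protein kinase of end joining, was called above with a log2 ratio of 0.36 (edgeR adjusted p = 0.00749), and none was called below. Rag1 and Rag2, which cut the segments, averaged 0.0333 and 0.00141 RPKM, and Dntt, which adds bases at the joints, 0.060 RPKM. The recombinase was thus hardly read in these libraries.

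The nearest tested genes on either side of each locus were looked at beside it. Among the 10 tested neighbours of the alpha locus, the median Castaneus share was 48.9%. Dad1, the survival gene just downstream of Trac, and Oxa1l, a mitochondrial insertase, were called above (log2 ratios of 0.58 and 0.50, edgeR adjusted p of 0.00111 and 0.00164), and Mettl3, an RNA methyltransferase, was called below (log2 ratio -0.28, edgeR adjusted p = 0.0287). Trac and Dad1, next to each other, were thus called in opposite directions. Of 10 neighbours of the beta locus, 3 were called above and 1 below, with a median share of 52.5%. Of 10 neighbours of the gamma locus, 2 were called above and 2 below, with a median share of 53.4%. Over all genes tested, 12.4% were called above and 15.6% below, and sets of 10 are too small to be told apart from that.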

How the data were processed

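The authors deposited 2 tables of 49671 genes: read counts by allele (Castaneus and C57BL/6) in whole numbers for each of 4 samples, not normalized, and RPKM values of both alleles together, per the file headers. STAR 2.7.1a, featureCounts and mm10 are named in the submitters' processing notes, and the kit was stranded and removed ribosomal RNA, per the labels' protocols. Not given in the sources used here are the way reads were assigned to alleles, the handling of reads that match several rows and the use of strand in counting. Reads could therefore move between near-identical V copies, and single allele shares of such copies are uncertain.

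Positions, biotypes, lengths and sequences came from GENCODE M21 (mm10), where all 258 segments were found on the chromosome that the files name. The closest copy of a segment was found by alignment with edlib 1.3.9.post1 within its class. Shares are Castaneus reads as a percent of allelic reads. Allele ratios were tested with edgeR 4.0.16 (glmQLFit and glmQLFTest under R 4.3.3), with a block for the replicate and each allele's autosomal total as library size, after a minimum mean of 20 allelic reads and 1 RPKM, with Benjamini-Hochberg adjustment over 10268 autosomal genes and an FDR of 5%. The SE of a log2 ratio was taken from the F statistic. The replicate pairs the alleles because both were read in the same animal. The test was tried on simulated counts first. Alternatives were another scaling, DESeq2 1.42.0, other minimums, no block and leaving out each replicate. Other steps used Python 3.11.15, pandas 2.3.3, scipy 1.17.1 and matplotlib 3.10.9. Precision is limited by the segments' median of 130 allelic reads per library.

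The members and lists were chosen with earlier results of these data known. Named segments are every C and D row that was read, the highest V and J rows of each locus (6 Trav and Trbv, 3 Trdv and Trgv, 5 Traj, 4 Trbj, 2 Trdj and Trgj), the 5 largest called ratios each way and the 3 widest swings between replicates. Other called rows, Traj40, the rows of semi-invariant receptors, rows at the ends of an array or range and the closest copies were added after their values had been seen.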

Additional observations from a re-analysis of the deposited data

Results flagged for a closer look

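Of 107 sets of 4 values checked, 15 had 1 library far from the other 3 by Dixon's gap ratio at the 95% level, where chance flags about 1 in 20. In replicate 4, the Castaneus share was 46.6% for Trbj2-7, 97.7% for Trbv21, 92.0% for Trav13d-4, 2.22% for Trav6-7-dv9 and 3.28% for Trav13n-4, and Trbc2 stood at 193 RPKM, above the other libraries. In the last 4 of these shares the other libraries sat at 100% or at 0%, so that a few reads of the other allele made the gap. In replicate 1, Trav14-2 stood at 4.29 RPKM and Trbv31 at 5.08 RPKM, below the other libraries, the Castaneus share of Trbj1-4 was 38.2%, and the gamma locus share was 0% of 4 reads. In replicate 2, Traj30 stood at 120 RPKM, above the others, the Castaneus share of Trbc1 was 51.9%, the lowest of its 4 values, and that of Trav6-5 was 0%. In replicate 3, the Castaneus share of Trdc was 50.8%, the highest of its values, and that of Traj30 was 33.8%, the lowest. The causes were not tested.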

How the results depend on the processing

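Single segments rested on few reads. Leaving out replicate 2 ended none of the 23 calls and raised the count to 33, while leaving out replicates 1, 3 or 4 ended calls. Leaving out 1 replicate gave 7 to 19 segments above (14 with all) and 5 to 14 below (9 with all). DESeq2's Wald test gave 26 above and 14 below, and a minimum mean of 100 reads 5 below. Without the replicate block 15 were above and 9 below, with all 23 calls shared. No share over all genes is given for these alternative fits, so their counts have no background here. Trac, Trbc1, Trbc2, Traj3, Trav3-1, Trav6-1, Trav7d-4, Trav8-2, Trbv21 and Trbv24 kept their call in all 13 alternatives. Of 503 alternative values of named segments, 468 kept direction and side of the threshold, 17 lost the call and 8 gained it. The sign turned in 10, all of them log2 ratios of segments that were not called. Leaving out 1 replicate gave ranges of -0.26 to 0.13 for Traj30, -1.69 to 0.25 for Trav10n, -0.14 to 1.52 for Trav6-5, -0.038 to 0.30 for Trbj1-5, -0.074 to 0.15 for Trbj1-6, -0.57 to 0.018 for Trbv29 and -0.41 to 0.012 for Trbv31. With no replicate block Trbv29 stood at -0.78. The cause was not tested.

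As the median over segments with a mean of 20 reads, the Castaneus share was 52.6% for alpha and 56.1% for beta. Without the segment with the most reads it was 53.1% for alpha, 60.8% for delta and 48.9% for beta. Without constant genes it was 53.1% for alpha, 60.8% for delta and 55.1% for beta. Gamma, with 1 row read, allowed none of these, and leaving out 1 library gave shares of 63.0% to 96.3%. Chromosome 14 without its most-read other gene stood at 49.1% with and 49.2% without receptor rows. Over rows of at least 1 RPKM the sum was 135 for Trav and 1.67 for Trdv. The median of rows above 0 RPKM was 0.919 for Trav, 39.8 for Traj, 0.660 for Trdv, 4.87 for Trbv, 20.7 for Trbd, 33.3 for Trbj and 152 for Trbc, smaller than each class sum by construction.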
